A study of Mus musculus with 15 samples.

Results

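H3K27Ac is laid down on nucleosomes next to active promoters and enhancers, and H3K4Me1 is a mark of enhancers and of the flanks of active start sites. At active CpG-rich promoters the nucleosomes nearest the start are typically trimethylated at H3K4, so that monomethylation dips there and rises further out. H3K27Me3 is the mark of Polycomb repression. H3K4 trimethylation was not analysed here.

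The genomic windows described here were acetylated at every time but never reached an H3K4Me1 level of 2-fold. They were chosen by measured values. The mouse genome (build mm9, chromosomes 1 to 19 and X) was cut into windows of 3 kb, and a level was the number of distinct tag positions in a window over the mean of that library (1 is the genome mean). Members had an H3K27Ac level of at least 4 and an H3K4Me1 level under 2 at all 5 times. There were 490 members, which is 0.0589% of the 832530 windows with a tag and 2.18% of the 22456 windows that were acetylated at all 5 times. Of these 22456, 19469 (86.7%) had H3K4Me1 at 2-fold or more at all 5 times, and 2497 (11.1%) reached it at some times only. These are called H3K4Me1-positive and mixed windows below.

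The chromatin immunoprecipitation libraries came from C10 cells, which derive from the mouse HAFTL pre-B cell line. C10 cells carry the estradiol-inducible fusion C/EBPαER tagged with GFP, so every library, 0 hpi included, holds the transgene. They were collected at 0, 3, 12, 24 and 48 h post-induction (hpi) with 100 nM β-estradiol, grown with 10 nM IL-3 and CSF-1, while they turn into macrophage-like cells. The estradiol concentration is that of the labels, and the study's methods give another. Per the labels, control cells received the ethanol solvent. The same C10 line gave all groups, so the data describe 1 cell line. There was 1 library for each of the 3 marks at each of the 5 times, without replicates, so no test between times was possible and no interval covers differences between libraries prepared again. The 15 libraries held between 11041458 and 31557475 tags.

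The limits cut through a continuous range of values. The members just inside the H3K27Ac limit had a lowest level of 4.01 (Pnpt1, a mitochondrial polynucleotide phosphorylase), and the nearest window outside it had 3.99. Just inside the H3K4Me1 limit were the windows of Ptma, Sec62 and Rps20, with a highest level of 1.997, and just outside it was that of Hps3 at 2.001. At the depth of these libraries, 422 members had a lower Poisson bound of H3K27Ac above the limit in all 5 libraries. The upper bound of H3K4Me1 stayed under the limit in all 5 for 163 members, and both held for 140. Membership also depended on where the windows were cut. With the grid moved by 1500 bp, 500 windows met the rule, but they overlapped only 134 (27.3%) of the 490 members. The members are therefore 3 kb segments of a given grid, and whether a start site is in them also depends on its place in the window.

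**Figure D1:**
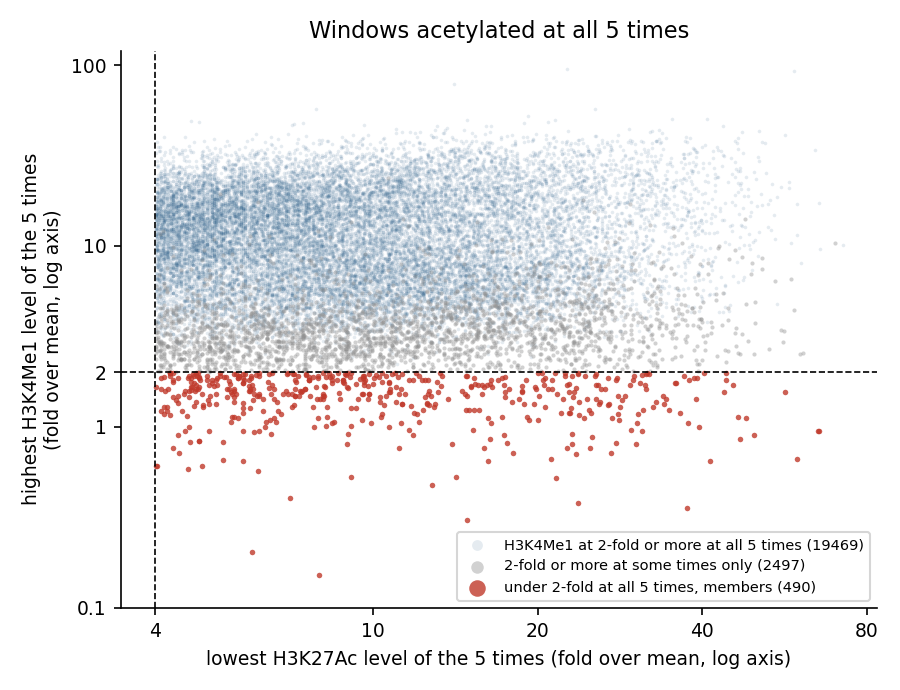
Each point is 1 of the 22456 windows acetylated at all 5 times, placed by its lowest H3K27Ac and its highest H3K4Me1 level over the 5 times (fold over the library mean, log axes), and dashed lines mark the limits. The 490 members lie below an H3K4Me1 level of 2 with no gap to the mixed windows above them.

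The upstream sequences of 3 strongly acetylated members are printed as examples, because CpG content is described below, and do not span its range over members. They are the 200 bases before the start sites of 5031425E22Rik (chr5:22939738-22939937, minus strand), Dusp6 (chr10:98725665-98725864, plus strand) and Lrrc8d (chr5:106129608-106129807, plus strand) in NCBIM37, which is mm9. None overlaps an annotated exon, and overlap with introns was not tested. Each is written 5′ to 3′ with its CpG dinucleotides in capitals.
5031425E22Rik: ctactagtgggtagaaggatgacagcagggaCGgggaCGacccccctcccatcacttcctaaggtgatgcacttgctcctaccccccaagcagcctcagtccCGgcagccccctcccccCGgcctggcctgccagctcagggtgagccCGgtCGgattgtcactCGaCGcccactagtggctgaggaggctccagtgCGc
Dusp6: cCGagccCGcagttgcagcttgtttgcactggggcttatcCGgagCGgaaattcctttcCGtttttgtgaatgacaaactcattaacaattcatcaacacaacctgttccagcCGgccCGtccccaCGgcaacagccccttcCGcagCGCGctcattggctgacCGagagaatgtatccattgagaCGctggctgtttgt
Lrrc8d: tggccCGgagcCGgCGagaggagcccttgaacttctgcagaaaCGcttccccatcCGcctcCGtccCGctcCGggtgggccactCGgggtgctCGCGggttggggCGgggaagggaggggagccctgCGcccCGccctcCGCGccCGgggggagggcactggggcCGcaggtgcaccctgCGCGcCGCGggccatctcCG
They held 9, 13 and 23 CpG dinucleotides. The upstream bases of the other leading start sites were not printed because they overlap an exon.

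Most members held a gene start. An annotated transcription start site lay inside 405 of the 490 (82.7%, exact 95% interval 79.0 to 85.9), against 36.9% of H3K4Me1-positive windows, 77.4% of mixed windows and 5.98% of all windows. A protein-coding start was present in 389 members (79.4%). Starts of 2 genes pointing away from each other within 1 kb were found in 54 members (11.02%), against 5.95% of H3K4Me1-positive and 12.5% of mixed windows. The share with a start therefore set the members apart from H3K4Me1-positive windows beyond its interval, while the mixed windows lay close to them.

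The members were also rich in CpG. Their median ratio of observed to expected CpG was 0.552, against 0.518 in mixed, 0.252 in H3K4Me1-positive and 0.164 in all windows. A ratio of at least 0.6 together with a GC content of at least 50% was found in 33.7% of members, 25.5% of mixed and 5.29% of H3K4Me1-positive windows. The difference remained among windows with a protein-coding start, where the shares were 40.6% of 389 members (exact 95% interval 35.7 to 45.7), 32.2% of 1867 mixed windows and 14.4% of 6760 H3K4Me1-positive windows. In the promoters themselves, taken as 250 bp before to 50 bp after the start, the gap was smaller. Each gene gave 1 promoter for every window that held a start of it, so a gene with starts in several windows counted more than once, also in more than 1 class. By the same limits, 74.0% of 430 promoters in members, 74.2% of 2111 in mixed windows and 66.0% of 7614 in H3K4Me1-positive windows were CpG-rich, against 42.9% of 22208 promoters when every protein-coding gene gave 1.

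Short promoter motifs were counted on both strands in the same 300 bp. The GC box GGGCGG, which Sp1 and Kruppel-like factors bind, was found in 67.7% of member promoters (exact 95% interval 63.0 to 72.1), 67.2% of promoters of mixed windows, 59.0% of those of H3K4Me1-positive windows and 44.1% of all promoters. The Ets motif CCGGAAG stood in 19.8%, 17.4%, 19.7% and 10.96% in the same order, and the CCAAT box in 35.1%, 35.5%, 34.7% and 37.4%. The TATA box TATAAA was found in 7.67%, 5.5%, 6.19% and 13.7%, and the C/EBP motif TTGCGCAA in 0.698% (3 member promoters), 0.189%, 0.368% and 0.225%. The GC box, which itself holds a CpG, thus separated members from H3K4Me1-positive but not from mixed windows. For the other motifs named here the intervals of the 3 classes of window overlapped. The genes of the 430 member promoters had a median length of 28.7 kb (exact 95% interval 24.9 to 34.2), against 28.05 kb for mixed windows, 21.7 kb for H3K4Me1-positive windows and 15.5 kb for all genes.

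In the 389 members with a protein-coding start, the median H3K4Me1 level at 0 hpi within 500 bp of the start was 0.528, against 0.880 in mixed and 1.94 in H3K4Me1-positive windows. Between 500 and 1500 bp it was 1.58, 3.17 and 5.81 upstream and 1.41, 3.17 and 6.34 downstream, so both near flanks were above the start in every class. These zones lie largely inside the windows and were used to choose them. Between 3000 and 5000 bp downstream, outside the windows, the medians were 2.55, 2.64 and 2.55. On that side the median of members was the same as that of H3K4Me1-positive windows at 0 hpi, while at 48 hpi it was 2.52 against 3.43 in both other classes. Between 3000 and 5000 bp upstream members had 0.704 at 0 hpi and 0.801 at 48 hpi. Mixed windows had 1.14 at both times and H3K4Me1-positive windows 1.76 and 1.95. In the 3 hpi and 12 hpi libraries this upstream zone of members, with 0.713 and 0.609, was below the start itself, with 0.856 and 0.761. The same held in mixed windows, with 0.999 and 0.99 against 1.43 and 1.22. H3K4Me1-positive windows had 1.64 and 1.67 against 2.71 and 2.13.

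**Figure D2:**
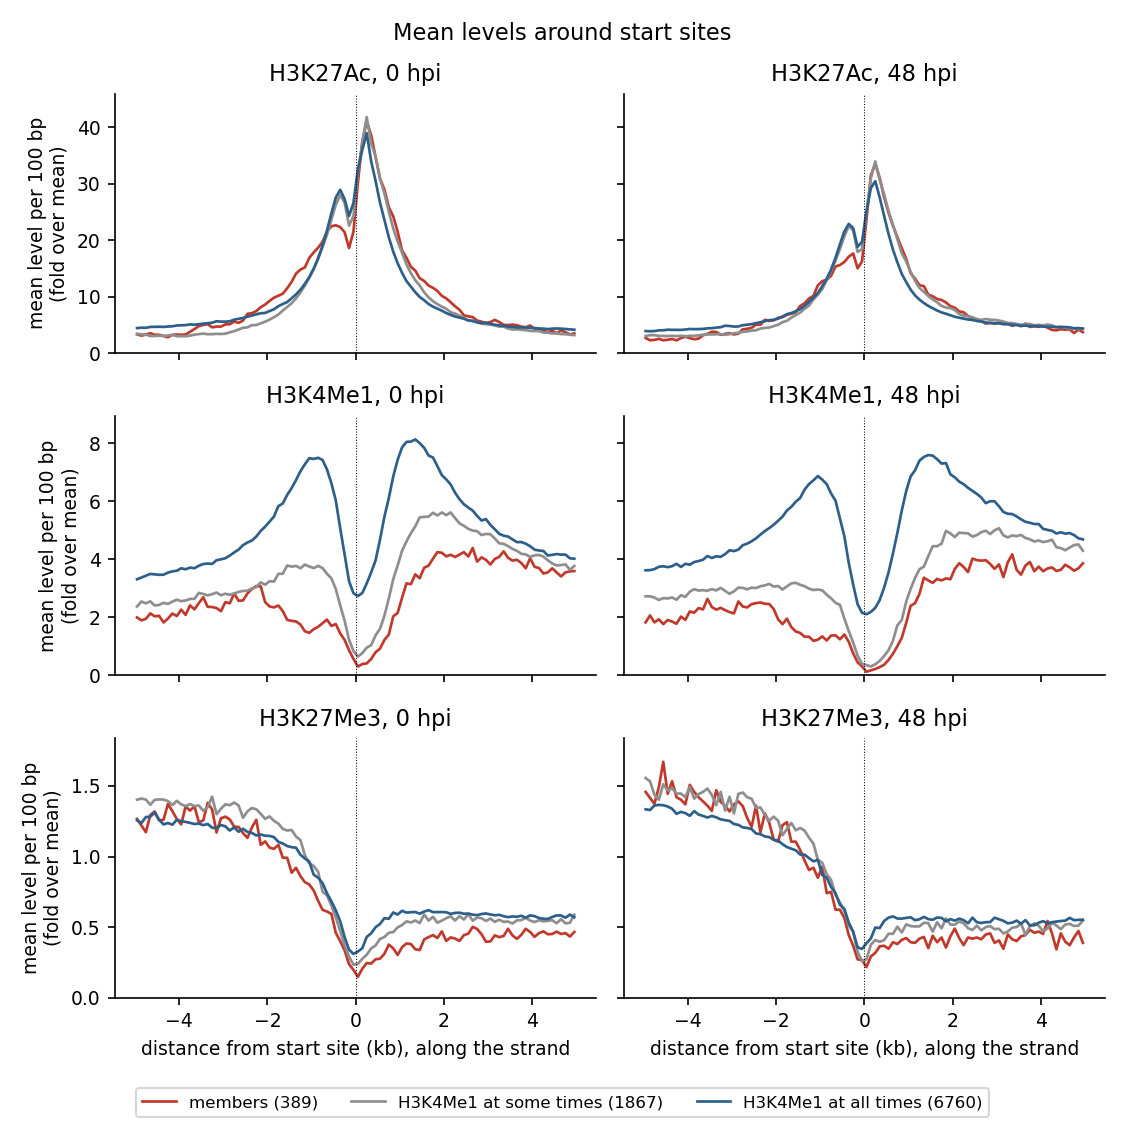
Mean levels in bins of 100 bp (fold over the library mean) are plotted against the distance from the protein-coding start site, read along the strand, for 389 members, 1867 mixed and 6760 H3K4Me1-positive windows at 0 and 48 hpi. H3K27Ac peaks just downstream of the start in all 3 classes, while H3K4Me1 of members is lowest at the start and highest beyond 2 kb downstream.

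Windows beside the members carried the mark. At least 1 adjacent window reached an H3K4Me1 level of 2 at some time in 437 members (89.2%, exact 95% interval 86.1 to 91.8), against 94.0% for mixed and 97.5% for H3K4Me1-positive windows. Both neighbours did so in 174 members (35.5%), against 49.98% and 76.7%. The median over members of the highest H3K4Me1 level was 5.57 in the higher neighbour and 1.12 in the lower. Members were thus flanked by H3K4Me1 on a single side more often than on both. No neighbour was acetylated at all 5 times in 261 members (53.3%, interval 48.7 to 57.8), against 50.6% of mixed and 38.4% of H3K4Me1-positive windows. The others stood in longer acetylated stretches of up to 34 windows.

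H3K27Ac levels of members overlapped those of the other acetylated windows, with the lower limit set by the rule. In order of time, the medians of members were 13.5, 14.5, 12.0, 13.3 and 10.5, and those of H3K4Me1-positive windows 15.4, 14.2, 14.3, 15.4 and 11.5. Levels of single members ran from 4.05 to 75.9 at 0 hpi and from 4.01 to 77.0 at 48 hpi, so the members covered a wide range of acetylation. Their median H3K4Me1 level was 1.11, 1.43, 1.22, 0.80 and 0.687, which rests on 19, 30, 24, 12 and 9 tags. Over all windows with a tag the medians were 0.352, 0.285, 0.203, 0.2 and 0.229. The median member thus lay above the median window and was low only beside other acetylated windows. The H3K4Me1 level was highest at 3 hpi in 270 members, a count made for members only. Mixed windows also had their highest median at 3 hpi, 3.09, while H3K4Me1-positive windows had 9.56 at 3 hpi and 9.69 at 12 hpi. The level stayed under 1 at all 5 times in 64 members.

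**Figure D3:**
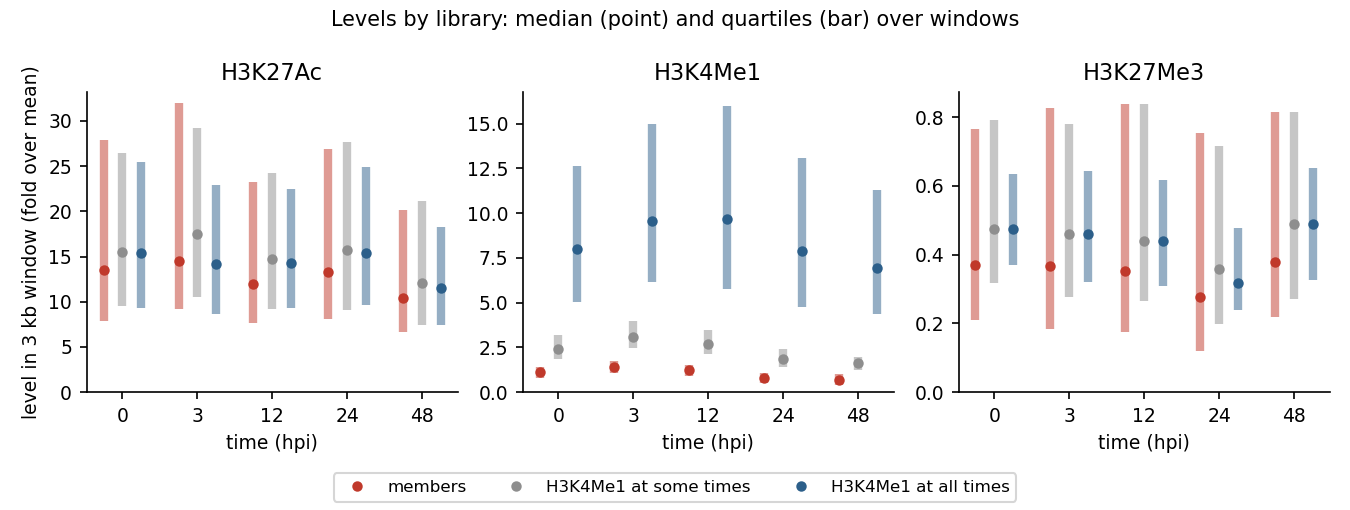
For each mark and time, points give the median level over windows and bars the quartiles, for 490 members, 2497 mixed and 19469 H3K4Me1-positive windows (fold over the library mean). The classes overlap in H3K27Ac and differ in H3K4Me1, which chose them, and the members have the widest quartiles in H3K27Me3.

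The most acetylated members were mostly at gene starts. The window with the highest lowest level was that of Ppp1r15b (chr1:135027001-135030000), which encodes a regulatory subunit that directs dephosphorylation of the translation factor eIF2α. Its H3K27Ac level was 70.4, 65.4, 67.0, 80.7 and 77.0 at 0, 3, 12, 24 and 48 hpi, and its H3K4Me1 level was at most 0.951. Dusp6, a phosphatase that inactivates ERK, had 2 adjacent members, the start (68.2, 82.5, 55.9, 63.0 and 49.7) and an exonic window (65.7, 84.9, 65.1, 77.0 and 66.9). Both were thus acetylated at more than 49-fold throughout, with H3K4Me1 at 0.951 or less.

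The start shared by 5031425E22Rik and Mll5, an H3K4 methyltransferase family gene, had 59.8, 78.1, 59.5, 68.9 and 61.3. The start of Pcbp1, an RNA-binding protein, had 72.6, 86.6, 57.0, 65.1 and 56.6. The other windows among the 10 strongest were those of B3gnt2, Brd2, Tgif1, Lrrc8d and Mir21, with lowest levels of 44.3 to 48.0. Brd2 encodes a bromodomain protein that binds acetylated histones, and Tgif1 a repressor of TGF-β signalling. Mir21 held the start of a microRNA gene and had 44.3, 79.2, 62.9, 76.6 and 69.4. In 9 of these 10 windows the highest of the 5 levels was that of 3 hpi, the exception being Ppp1r15b.

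The 5 members poorest in H3K4Me1 were of different kinds. Sp3, a GC-box binding factor, had H3K4Me1 levels of 0.352, 0.333, 0.355, 0.0667 and 0.153 with H3K27Ac of 37.4 to 59.7. Ogt, the enzyme that attaches N-acetylglucosamine to proteins, had H3K4Me1 of at most 0.381 with H3K27Ac of 23.7 to 30.9. The other 3 were an intergenic window 68686 bp from Gm6425, a window 1035 bp from Klhl17 and the start of AC073553.3. The windows near Gm6425 and Klhl17 had mean H3K27Me3 levels of 0.0345 and 0.0277, so they were poor in both of the other marks. How much of their sequence can be aligned uniquely was not tested.

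H3K27Ac at members was highest at 3 hpi in 290 of 490 windows and lowest in its median at 48 hpi. The time of the highest level was counted for members only. Mixed windows also had their highest median at 3 hpi, 17.5, and their lowest at 48 hpi, 12.0. H3K4Me1-positive windows had 14.2 at 3 hpi, below the 15.4 at 0 hpi. The median log2 change of members from 0 hpi was 0.23, -0.10, 0.01 and -0.28 at the 4 later times. At 3 hpi H3K4Me1-positive windows had a median of -0.09 and mixed windows 0.17. The highest level of a member was a median of 1.67 times its lowest, and 114 members (23.3%) varied by 2-fold or more over the 5 libraries. In mixed windows the median was 1.68 and the share 28.9%, while H3K4Me1-positive windows had 2.05 and 52.3%.

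Between 0 and 48 hpi, 58 members (11.8%) had a level of H3K27Ac 2-fold or more lower and 3 (0.612%) had a level that was 2-fold or more higher. Over the 51486 windows at 4-fold or more at 0 or 48 hpi, 25.5% were lower and 33.7% were higher. The rule required acetylation at both times, which removes windows that appear or vanish, so nothing is read from the difference between these shares. With counting error alone, the interval of the ratio lay below 1 in 240 members (48.98%), above 1 in 69 (14.1%) and held 1 in 181. Over the 22456 windows acetylated at all 5 times it lay below 1 in 53.9% and above 1 in 21.8%, over mixed windows in 52.3% and 16.7%, and over H3K4Me1-positive windows in 54.2% and 22.6%. In each class more windows lay below 1 than above it. Such a share also depends on how many tags a window holds. The median log2 change at 48 hpi was -0.35 in H3K4Me1-positive and -0.29 in mixed windows.

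The 5 members with the lowest ratio of 48 to 0 hpi were 3 gene starts and 2 intergenic windows. At the start of Bcl11a, a transcription factor needed for lymphoid development, H3K27Ac was 44.0, 41.2, 20.1, 17.8 and 8.98, and the level of 48 hpi was 0.204 times that of 0 hpi (counting interval 0.173 to 0.241). At the start of Fbxo5, an inhibitor of the anaphase-promoting complex, it was 39.4, 34.1, 23.8, 15.2 and 8.17 (ratio 0.207, interval 0.174 to 0.246). In both genes each time had a lower level than the one before. Igf2, a growth factor gene, went from 20.5 at 0 hpi to 4.31 at 48 hpi, and intergenic windows 20369 bp from Lhfpl1 and 6582 bp from Cdkn1b, a cyclin-dependent kinase inhibitor, had ratios of 0.237 and 0.268.

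The 5 members with the highest ratio moved less. Itga1, an integrin subunit, had 4.82, 6.17, 7.13, 12.4 and 10.5 at its start (ratio 2.17, interval 1.68 to 2.82). Malat1, a nuclear noncoding RNA, had 22.5, 30.6, 26.3, 41.5 and 41.1 in an exonic window (ratio 1.83, interval 1.62 to 2.06). The other 3 were intergenic, with 2 near 3110007F17Rik on chromosome X and 1 near Gm16738, and none of them exceeded 9.54. H3K4Me1 at Malat1 was 2.00 at 3 hpi, just under the limit, and 0.229 at 48 hpi.

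**Figure D4:**
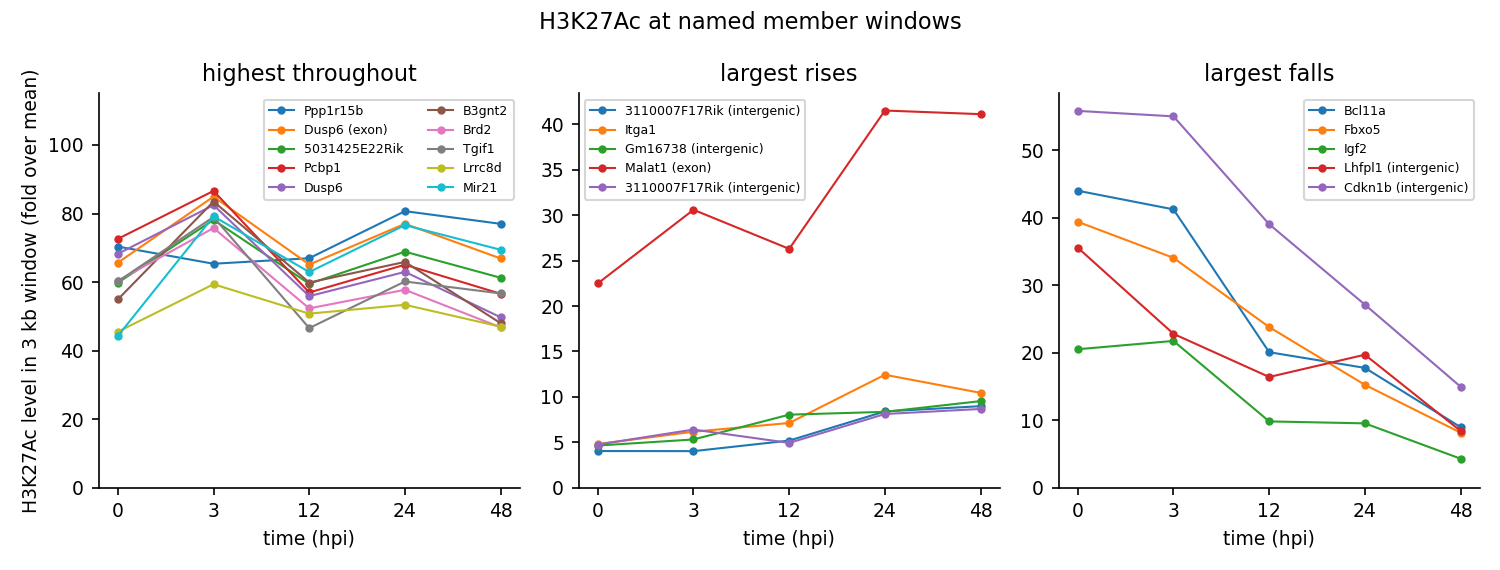
H3K27Ac levels (fold over the library mean) at 0, 3, 12, 24 and 48 hpi, spaced evenly, are drawn for the 10 members with the highest lowest level and for the 5 with the highest and the lowest ratio of 48 to 0 hpi, with genes named by the nearest start. Bcl11a goes from 44.0 to 8.98 and Malat1 from 22.5 to 41.1, while the 10 strongest windows stay above 44.

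Ebf1, which specifies B cells, was the single B lineage marker of 12 with a start in a member, and it had 2 adjacent windows. The interval of this share (8.33%, exact 95% interval 0.211 to 38.5) held the 1.91% of all protein-coding genes. The window with the lower coordinates had H3K27Ac of 56.7, 52.7, 40.9, 35.9 and 20, and the next one 49.8, 41.8, 35.5, 34.7 and 23.7. In both, each time had a lower level than the one before, while H3K4Me1 stayed at or under 1.95. The macrophage list as planned held a further gene that is not among the 12 counted, so the count is incomplete. Of the 12 macrophage markers 0 had a start in a member, and 4 (33.3%, exact 95% interval 9.92 to 65.1) had a start in a window acetylated at all 5 times, 0 hpi included. This was the case for 11 of the 12 B lineage markers (91.7%, interval 61.5 to 99.8) and for 40.1% of all protein-coding genes, a share that lay within the interval of the macrophage markers. A few further transcription factor genes outside the lists were picked by hand after their values were seen, and their direction is no evidence of a pattern. Both adjacent members at Zeb2, also a transcription factor gene, had higher levels at 48 than at 0 hpi (45.9 against 37.1 and 44.6 against 39.4). The others named here had lower ones. Ikzf1 (Ikaros) had 75.9, 78.2, 56.6, 59.0 and 41.4, Foxo1 went from 49.8 at 0 hpi to 16.2 at 48 hpi, and Sox4 from 35.3 to 12.1. An exonic window 25 bp from the start of Mef2c went from 42.9 to 14.9.

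Among the gene lists, which were made by gene symbol, splicing factor and histone genes had the highest shares with a start in a member. The name of a list therefore need not hold for every gene in it. For comparison, 425 of 22208 protein-coding genes (1.91%) had a start in a member, which is 4.77% of the 8906 with a start in any window acetylated at all 5 times. Splicing factor genes had 9 of 54 (16.7%, exact 95% interval 7.92 to 29.3), or 18.4% of the 49 acetylated. Of these, Srsf2 had a lowest H3K27Ac level over the 5 times of 27.3, Srsf3 of 24.7 and Srsf5 of 15.1. The lists were compared without a test.

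Replication-dependent histone genes, which supply the histones of new chromatin in S phase, had 9 of 70 (12.9%, interval 6.05 to 23.0), or 20.9% of the 43 acetylated. These genes have near-identical copies, and tags without a unique alignment had been removed, so their levels are uncertain. Their starts lay in 5 members on chromosome 13, of which 3 stood, together with an exonic member, within chr13:23634001-23715000. The interval counts each gene separately although some share a window, so it may be too narrow. On chromosome 13, 6.46% of 790 acetylated windows were members, the highest share of any autosome, against 1.92% over chromosomes 1 to 19. Whether the share of histone genes follows from that of the chromosome was not tested. H3K27Ac at the start of Hist1h1b was 24.5, 32.6, 21.8, 17.6 and 8.32, and at Hist1h2be it was 21.6, 32.9, 23.0, 21.9 and 10.7. Both had their highest level at 3 hpi and their lowest at 48 hpi.

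The 200 bases before 3 histone starts are printed because near-identical gene copies make their levels uncertain and their letters show the promoters in question. They were picked after the values were seen, lie on the minus strand of mm9 and overlap no annotated exon. Their positions are chr13:21872495-21872694 (Hist1h1b), chr13:23654239-23654438 (Hist1h3e) and chr13:23854256-23854455 (Hist1h3a). Capitals mark TATAAA and CCAAT on either strand.
Hist1h1b: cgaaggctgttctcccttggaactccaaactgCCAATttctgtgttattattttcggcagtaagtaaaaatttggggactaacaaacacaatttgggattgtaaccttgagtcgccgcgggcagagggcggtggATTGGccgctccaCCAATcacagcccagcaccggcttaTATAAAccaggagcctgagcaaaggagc
Hist1h3e: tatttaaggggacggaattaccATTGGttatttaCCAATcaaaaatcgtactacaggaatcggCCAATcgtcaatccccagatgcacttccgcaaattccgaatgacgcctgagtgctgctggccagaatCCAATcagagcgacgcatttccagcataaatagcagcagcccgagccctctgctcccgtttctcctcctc
Hist1h3a: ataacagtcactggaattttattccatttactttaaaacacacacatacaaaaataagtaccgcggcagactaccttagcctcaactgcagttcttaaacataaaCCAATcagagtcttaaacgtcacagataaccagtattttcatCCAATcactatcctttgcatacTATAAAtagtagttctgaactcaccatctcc
CCAAT occurred 3, 4 and 2 times and TATAAA 1, 0 and 1 times, while the bases before Hist1h2be and Hist1h2bh, not printed, held 3 and 1 CCAAT and 0 TATAAA. The bases before 5031425E22Rik, Dusp6 and Lrrc8d held 0, 1 and 0 CCAAT and 0 TATAAA. CpG dinucleotides numbered 8, 11 and 3 before the printed histone starts, which overlaps the 9 to 23 of those genes. A match is a description of the letters only. Genes whose transcript has 1 exon, as histone genes do, made up 4.88% of member starts, 4.07% of those in mixed windows, 1.97% of those in H3K4Me1-positive windows and 13.4% of all genes.

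The other lists had lower shares with a start in a member. Cytoplasmic ribosomal protein genes had 6 of 83 (7.23%), namely Rpl27, Rpl37a, Rpl39, Rps20, Rps23 and Rps27l. Of those with an acetylated start this was 7.69% of 78, nearer to the 4.77% of all such genes. Rpl39 went from 34.7 at 0 hpi to 15.2 at 48 hpi and Rpl37a from 15.2 to 14.7. Proteasome genes had 4 of 50, or 8.51% of the 47 acetylated. The translation factor list, made by symbol and not by function, had 4 of 65, namely Eif2ak1, Eif2s3x, Eif3a and Eif4ebp2. Mitochondrial ribosomal proteins had 4 of 77 and chaperones 4 of 84. Of the chaperones, the shared start window of Hspd1 and Hspe1, the mitochondrial chaperonin pair, had 36.1, 45.3, 19.9, 21.5 and 26.0. The zinc finger list, made of Zfp symbols whatever the type of finger, had 12 of 367, among them Zfp36l1, Zfp36l2 and Zfp238. Zfp238 had 74.8, 75.7, 41.3, 36.1 and 35.8. DNA replication genes had 0 of 43 and RNA polymerase subunits 0 of 27, for which exact intervals reach 8.22% and 12.8%. Single genes stood for 3 further lists, Eprs for 38 aminoacyl-tRNA synthetases, Ndufb11 for 91 respiratory chain genes and Snhg12 for 9 snoRNA hosts. Mediator and TFIID genes had 2 of 52.

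**Figure D5:**
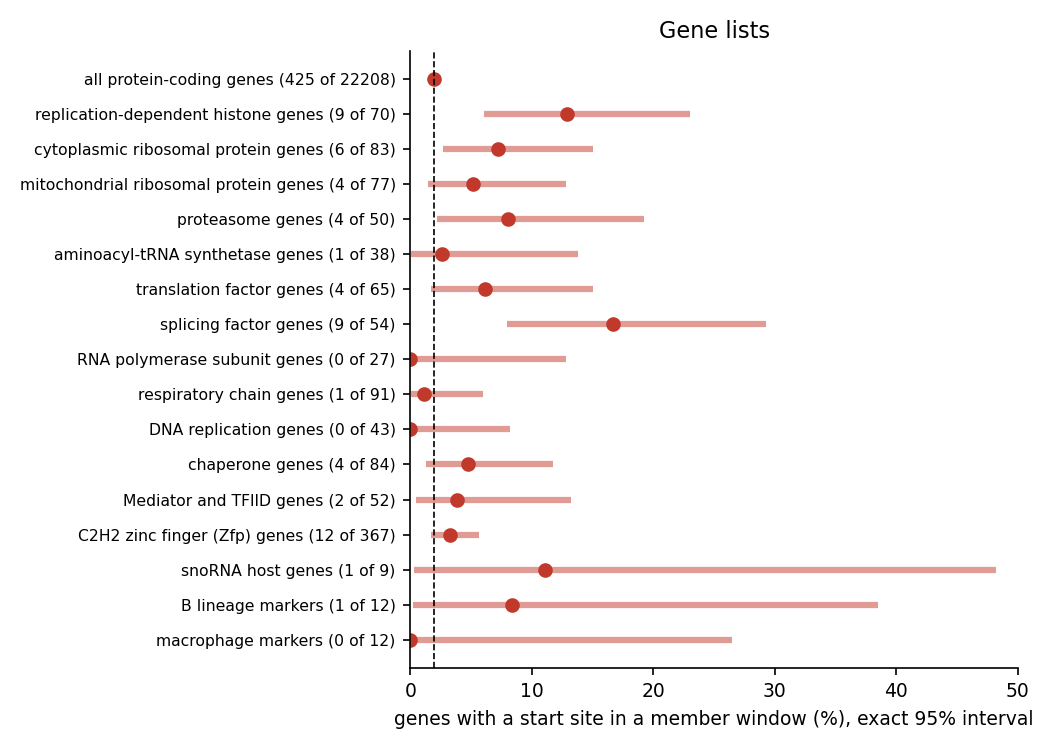
Points give the percent of genes in each list with a start site in a member window and bars the exact 95% interval, with counts beside each name and a dashed line at the 1.91% of all protein-coding genes. The intervals of histone, splicing factor, cytoplasmic ribosomal protein and proteasome genes lie above that line, and the others reach it. The line counts all genes, acetylated or not. Among genes with a start acetylated at all 5 times, the shares of these 4 lists were 20.9%, 18.4%, 7.69% and 8.51%, against 4.77% of all protein-coding genes. Histone genes share windows, so their interval may be too narrow. Those counted lie on chromosome 13, where 6.46% of acetylated windows were members.

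H3K27Me3, which the rule did not use, was low at members but not evenly so. The median level was 0.370, 0.367, 0.352, 0.278 and 0.380 at 0, 3, 12, 24 and 48 hpi, resting on 7 to 14 tags, against 0.475, 0.459, 0.441, 0.318 and 0.489 in H3K4Me1-positive windows. All windows had 0.792, 0.781, 0.705, 0.715 and 0.706. Mixed windows had 0.475, 0.459, 0.441, 0.357 and 0.489. Yet the upper quartile of members was 0.765 at 0 hpi, above the 0.633 of H3K4Me1-positive windows and just below the 0.792 of mixed windows. A level of 2 or more at any time was found in 32 members (6.53%, exact 95% interval 4.51 to 9.09), 2.59% of H3K4Me1-positive windows, 7.89% of mixed windows and 17.8% of all windows.

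In 12 members (2.45%) H3K27Me3 was at 2-fold or more in all 5 libraries, beside H3K27Ac, against 2.56% of mixed and 0.668% of H3K4Me1-positive windows. The highest mean was that of Dcp1a, an mRNA decapping factor, with H3K27Me3 of 3.27, 3.26, 3.96, 2.94 and 2.93. H3K27Ac in the same window was 6.67, 8.31, 6.37, 6.60 and 5.94. Sfxn1, a mitochondrial serine carrier, had 3.11, 3.26, 2.95, 3.14 and 3.58 with H3K27Ac of 12.5 to 22.6. Tollip, an inhibitor of Toll-like receptor signalling, Sec62, a subunit of the protein translocation machinery, and Zfml had means of 3.07, 2.95 and 2.83. The 2 marks were measured in 3 kb segments and in separate libraries, so whether they share nucleosomes cannot be told.

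Around protein-coding starts of members H3K27Me3 was higher upstream than downstream. At 0 hpi the median level was 0.911 between 3000 and 5000 bp upstream, 0.238 within 500 bp of the start and 0.396 between 3000 and 5000 bp downstream. At 48 hpi the values were 0.896, 0.326 and 0.407. The H3K4Me1-positive starts had 0.792, 0.317 and 0.475 at 0 hpi, which is the same order of the 3 zones.

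From 0 to 48 hpi the level of H3K27Me3 was 2-fold or more higher in 14 of the 333 members with at least 10 tags in either library (4.20%, exact 95% interval 2.32 to 6.95). It was 2-fold or more lower in 25 (7.51%, interval 4.92 to 10.9). Over 759743 windows tested in the same way, 1.9% were higher and 8.39% were lower. The share that was lower is within the interval of the members, and the share that was higher lies just below it, on a count of 14 windows with few tags.

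Chromosome X held 69 members (14.1%), although it holds 2.15% of the windows acetylated at all 5 times. There, 14.3% of 482 acetylated windows were members (exact 95% interval 11.3 to 17.8), against 1.92% of 21974 on chromosomes 1 to 19. Among acetylated windows with a start site, the shares were 23.4% of 252 (exact 95% interval 18.3 to 29.1) and 3.73% of 9269. Levels were lower along the whole chromosome. At 0 hpi the mean over all X windows was 0.299 for H3K4Me1, 0.323 for H3K27Ac and 0.440 for H3K27Me3, against 1.04 to 1.05 on chromosomes 1 to 19. Acetylated start windows on X had a median H3K4Me1 level of 2.05, against 4.46. When X windows were set against the mean of chromosome X instead, 2 of the 423 windows that met the rule (0.473%) were on X, so the count there depends on the scale. The number of X chromosomes in the line is not given in the sources used here.

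Genes with a start in an X member are named here after their values were seen. Hcfc1, a transcriptional coregulator, had the highest lowest H3K27Ac there (32.9), followed by Msn (28.0), which links actin to the membrane, and Stag2 (27), a cohesin subunit. The lowest level of Kdm6a, an H3K27 demethylase, was 21.6, that of Usp9x, a deubiquitinase, 21.1 and that of Huwe1, a ubiquitin ligase, 18.1. Kdm6a had 23.1 at 0 hpi and 21.6 at 48 hpi, whereas Btk, a kinase of B cell receptor signalling, went from 42.8 to 22.5. Chromosome 13 held 51 members, 6.46% of its 790 acetylated windows, the highest share of any autosome.

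A start was absent from 85 members. Of these, 41 lay within 3 kb of an annotated start and 44 lay further away, and 56 were intergenic, 20 exonic and 9 intronic. The strongest far from a start was an intergenic window 22291 bp from Zfp541 (chr7:16632001-16635000) with H3K27Ac of 63.4, 68.8, 56.9, 64.0 and 39.0. An intergenic window 13369 bp from Chd2 had 40.9, 49.7, 32.0, 39.5 and 33.8, and an intron of Eif4e3 had 46.5, 58.3, 39.5, 39.3 and 29.6. The ratio of observed to expected CpG in these 3 windows was 0.647, 0.764 and 0.813, above the median of 0.602 of members with a protein-coding start. Of the windows ranked next, that near Olfr1423 had 0.773 and that in an intron of Trappc9 had 0.561, below this median. Only 7 of the 85 were CpG-rich by both limits. Whether the annotation used here lacks start sites in these windows was not tested.

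The members were spread over the genome. They formed 478 groups of consecutive windows, of which 466 were single windows. Neighbouring members lay, for example, at Ppp1r15b, Zeb2, Tnrc18, Dusp6, Bcl11a and Ebf1. Allowing gaps of 100 kb gave 450 groups, and the one with most members was the histone cluster on chromosome 13.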

How the data were processed

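Per the labels, libraries were made from C10 cells and sequenced on an Illumina instrument. The authors aligned reads without mismatches to mm9 with Eland or Bowtie (versions, and which library used which, are not given in the sources used here) and removed identical tags and those without a unique alignment. The deposited files hold no counts or other values, but the chromosome, start and end of each 36 bp tag, without strand, so the positions as deposited are the unit. In each of 3 files, 2 lines without a position were dropped.

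From these, 1 tag was kept per position, because some files still hold identical tags, and was placed 18 bp from its start. Tags on chromosomes 1 to 19 and X were counted in 3000 bp windows from position 0 and divided by the library's mean over windows with a tag in any library. The rule was run on simulated windows with levels planted clear of the limits, which checks the code. That run cannot show how often windows near a limit are misplaced. Start sites, exons and bases came from NCBIM37 with GENCODE vM1. Profiles used the protein-coding start nearest the middle of a window. Shares have exact binomial, tag counts exact Poisson and medians exact order-statistic 95% intervals. Those of tag counts and their ratios cover counting error only, those of shares and medians reflect the number and spread of windows or genes, and none covers differences between replicate libraries. H3K27Me3 changes needed at least 10 tags in either library. Python 3.11.15, numpy 2.4.6, pandas 2.3.3, scipy 1.17.1 and pysam 0.24.0 were used.

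Named genes are the 10 members with the highest lowest H3K27Ac, the 5 with the lowest highest H3K4Me1, the 5 with the highest mean H3K27Me3, the 5 largest rises and falls of H3K27Ac, the 5 strongest without a start within 3 kb, those nearest the limits and up to 4 per gene list. Some further genes were named by hand after their values were seen, as stated where they appear. The members and lists were chosen with earlier results of these data known. Only the 3 histone marks were analysed here. Some items that this rule names are not reported here.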

Additional observations from a re-analysis of the deposited data

How the results depend on the processing

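No paired analysis was possible because there was a single library for each mark at each time. Of the values recomputed under the alternatives, 134 lay inside the 95% interval of the value as reported (counts within 1.5 times) and 43 lay outside it. These include levels over the library median, which are on another scale. A change of sign was possible only for the median log2 change of H3K27Ac, which stayed negative. No value moved when a time was left out of the rule (504 to 682 windows), with tags as deposited (488) or without chromosome X (453), and 62 instead of 58 list genes counted when starts within 1500 bp were allowed. The set itself was least stable to the scale and the grid. Over the median of each library 22 windows met the rule, of which 10 were members, with a start in 50% and a CpG ratio of 0.431. Their H3K27Ac of 19 and 12.2 at 0 and 48 hpi and H3K27Me3 of 0.3 and 0.269 are folds over the median. For H3K27Ac the mean window held 18.3 and 19.7 tags at these times and the median window 4 and 4. Levels over the median therefore cannot be set beside those over the mean. Windows of 2 kb gave 1110, with a CpG ratio of 0.733, H3K27Ac of 28.2 and 20, a log2 change of -0.375, H3K27Me3 of 0.275 and 0.323 and an adjacent H3K4Me1 window in 94.2%. With the grid moved, H3K27Me3 was 0.396 and 0.434, and at equal depth it was 0.379 at 48 hpi. An H3K27Ac minimum of 3 gave a CpG ratio of 0.508, H3K27Ac of 10.7 and 8.98 and an adjacent H3K4Me1 window in 85%. A minimum of 6 gave a start in 86.4%, a CpG ratio of 0.635, H3K27Ac of 18.4 and 13.9, H3K27Me3 of 0.317 and 0.326 and an adjacent H3K4Me1 window in 93.3%. An H3K4Me1 limit of 1.5 left 216 windows with a CpG ratio of 0.596, H3K27Ac of 14.8 and 11.4 and H3K27Me3 of 0.264 and 0.326, and a limit of 3 gave 1520 with H3K27Me3 of 0.475 and 0.489. Raising or lowering a limit changes which windows enter, and the cause of the other shifts was not tested. The share of members on chromosome X (14.1%) was 0.473% over the mean of X, an alternative chosen after seeing the data, 9.09% over the median, 10.3% with an H3K4Me1 limit of 3 and 10.1% in 2 kb windows. The share with H3K27Ac 2-fold or more lower at 48 hpi (11.8%) was 22.7% over the median, on 22 windows. Depth limits H3K4Me1 and H3K27Me3 most, since medians at 48 hpi rest on 9 and 7 tags.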
